A study of Mus musculus with 576 samples.

Results

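The insulin-like growth factor (Igf) system was followed through single cells of the mouse dorsal pancreas at embryonic day 12.5. Its 10 genes were taken by name, without regard to their level, from tables that list 36658 genes. They were the ligand genes Igf1 and Igf2, the receptor genes Igf1r, Igf2r and Insr, and the binding protein genes Igfbp2, Igfbp3, Igfbp4, Igfbp5 and Igfbp7, and all 10 were found. GFP-positive cells had been sorted 1 per well from 3 mouse lines kept on a C57BL/6J background, on 2 plates of 96 cells for each. In the Nkx2.5-Cre;mTmG line (plates 6A and 6B) and the Nkx3.2-Cre;mTmG line (plates 7A and 7B), GFP marks cells in which the driver gene was once active, together with all cells that descend from them. The Prox1-GFP line (plates 8A and 8B) carries a reporter transgene of Prox1 and holds both epithelial and mesenchymal cells. Cells of the 3 lines are called Nkx2.5, Nkx3.2 and Prox1 cells here.

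Igf1 and Igf2 are secreted growth factors that act through the Igf1 receptor, a tyrosine kinase at the cell surface, and in part through the closely related insulin receptor encoded by Insr. Igf2r encodes the cation-independent mannose 6-phosphate receptor, which takes up Igf2 and carries it to lysosomes. Igf2 is expressed from the paternal allele and Igf2r, in the mouse, mainly from the maternal allele. Igfbp2 to Igfbp5 bind both ligands with high affinity outside the cell and can hold them back or deliver them, while Igfbp7 is a distant relative that binds Igf weakly.

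Levels are CPM, the counts of a gene per 1000000 counts, after the cells of a group had been added up. A gene was counted as held by a cell after each cell had been thinned to 100000 counts, so that deep and shallow cells could be compared. The labels name no embryo or litter, so each line was 1 sample, the cells were not replicates and no test was run. Both plates of a line show how far its plates differ, and not the spread between embryos. Pairs of plates formed across lines reuse the same plates and are not independent repeats. A ratio was called when it was at least 2-fold the same way in every plate or line compared, with at least 10 CPM in the higher group. Library numbers of Prox1 cells run apart from the rest, so a batch of libraries cannot be told apart from this line. Exact 95% Poisson intervals cover counting error of reads only. Copies from PCR are counted too, so the intervals are too narrow for molecules. Over 201 levels of 10 CPM or more the half-width of the intervals had a median of 2.73% of the level and reached 25.9%.

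After the filters 549 cells were left, with between 224814 and 1512736 counts each. Clustering without the Igf genes gave 86 epithelium-like cells and 21 endocrine-like cells, all from the Prox1 line, 28 mesothelium-like cells (5 Nkx2.5 and 23 Nkx3.2 cells) and 414 mesenchymal cells (87, 81, 92, 76, 34 and 44 in plates 6A, 6B, 7A, 7B, 8A and 8B). The names rested on marker lists. The 14 epithelial markers summed to 7040 CPM in epithelial and 46.5 CPM in mesenchymal cells, the 14 endocrine markers to 47594 CPM in endocrine cells against 101.6 CPM in epithelial cells and at most 3.73 CPM in mesothelial and mesenchymal cells, and the 10 mesothelial markers to 2496 CPM in mesothelial and 89.9 CPM in mesenchymal cells. Prox1 itself stood at 950 CPM in Prox1 cells and under 1 CPM in the others (0.584 and 0.695 CPM). Within the Prox1 line it was 1542 CPM in epithelial but 186.9 CPM in mesenchymal cells, where 36 of 78 cells had a count. Nkx2-5 and Nkx3-2 did not separate the lines named for them. Nkx2-5 was at 7.29 CPM in Nkx2.5 cells (13.1 CPM in 6A and 1.04 CPM in 6B) and 9.36 CPM in Nkx3.2 cells.

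**Figure D1:**
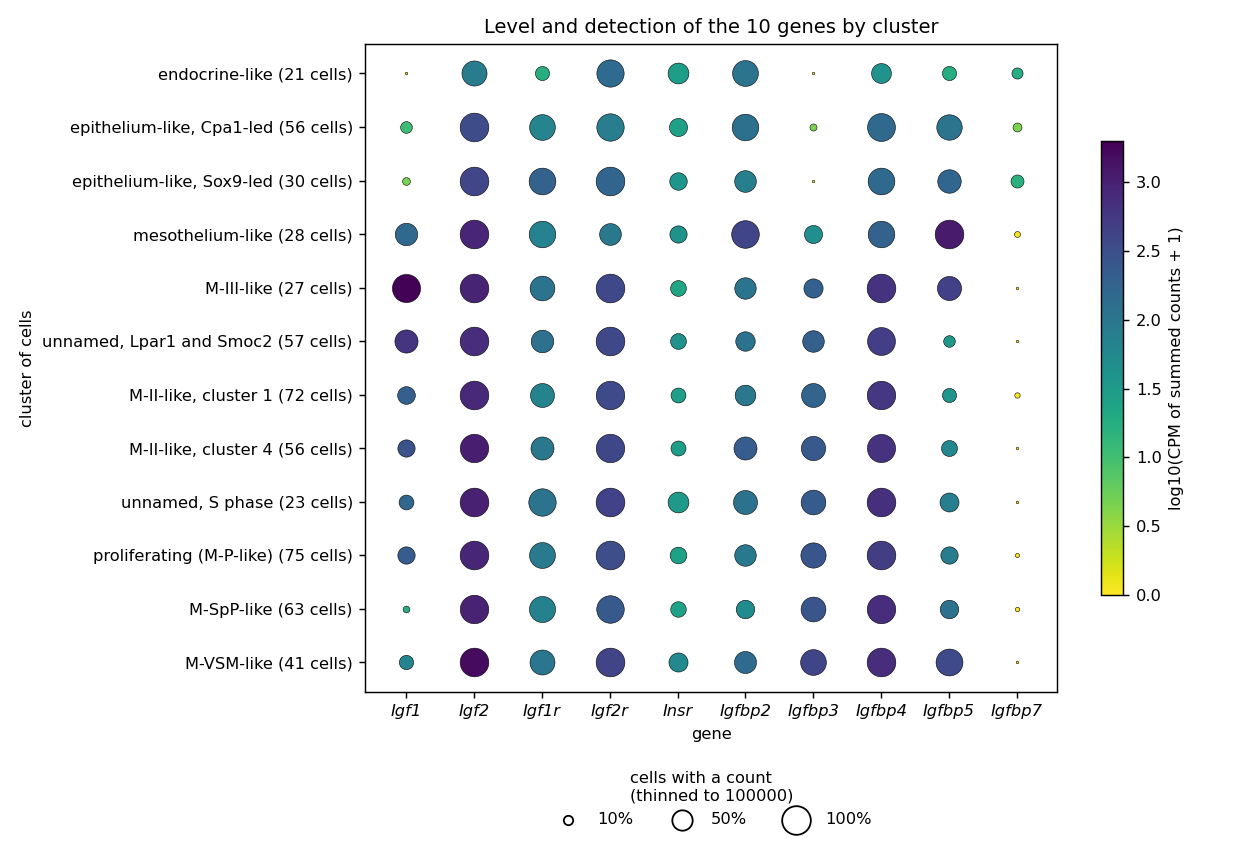
Level and detection of the 10 Igf genes in the 12 clusters of cells. Colour gives log10 of CPM of the summed counts plus 1, and dot size the share of cells with a count after thinning to 100000 counts. Igf2, Igf2r and Igfbp4 were held by most cells of nearly every cluster, Igf1 was highest in the M-III-like cluster, Igfbp5 in the mesothelium-like cluster, and Igfbp3 was held by few epithelial and endocrine cells.

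Where the genes lie is given for GRCm38, the build of the files, with the positions of GENCODE M21. Igf1 lies at chr10:87858265-87937042, Igf2 at chr7:142650766-142666816, Igf1r at chr7:67952827-68233668, Igf2r at chr17:12682406-12769664 and Insr at chr8:3122061-3279617. Igfbp2 (chr1:72824503-72852474) and Igfbp5 (chr1:72857932-72874884) are neighbours transcribed towards each other. Igfbp3 lies at chr11:7206086-7213923, Igfbp4 on the same chromosome at chr11:99041244-99054392 and Igfbp7 at chr5:77349240-77408041. Gene models overlapped 3 of the 10 genes. A gene model on the strand of Igf2 held only 0.614 CPM over all cells, a pseudogene within Insr held 0 CPM, and Polr2b, which overlaps Igfbp7 on the other strand, held 154.4 CPM, and the counting was not stated to use strand.

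The binding protein genes set the tissue layers apart, and 4 of their promoters are shown for that reason. The RefSeq table (GRCm38.p6) held 13 promoters for 9 of the 10 genes, and the 250 bases before the start are printed 5′ to 3′ on the gene's strand. Capitals mark 6 short motifs, each searched on both strands. The TATA box was searched as TATAAA. Its looser forms were searched as TATATA, and separately as TATTTA, both added after the sequences had been seen. The CCAAT box is CCAAT itself. The letters of the GC box, GGGCGG, were searched next. The E-box was searched as CACGTG. The first sequence is that of Igfbp2 at chr1:72824230-72824479 (plus strand), followed by Igfbp5 at chr1:72874866-72875115 (minus strand), Igfbp3 at chr11:7213924-7214173 (minus strand) and Igfbp4 at chr11:99040994-99041243 (plus strand).
Igfbp2: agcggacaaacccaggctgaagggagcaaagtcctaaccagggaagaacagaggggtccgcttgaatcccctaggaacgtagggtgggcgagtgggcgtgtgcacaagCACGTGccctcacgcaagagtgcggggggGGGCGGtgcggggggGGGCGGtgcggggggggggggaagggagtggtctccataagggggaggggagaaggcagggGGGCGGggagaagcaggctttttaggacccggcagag
Igfbp5: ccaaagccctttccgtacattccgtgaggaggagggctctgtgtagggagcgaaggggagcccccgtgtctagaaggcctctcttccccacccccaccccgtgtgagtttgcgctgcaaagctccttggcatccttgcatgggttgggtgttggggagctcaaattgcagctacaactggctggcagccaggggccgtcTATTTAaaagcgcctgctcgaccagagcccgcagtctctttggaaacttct
Igfbp3: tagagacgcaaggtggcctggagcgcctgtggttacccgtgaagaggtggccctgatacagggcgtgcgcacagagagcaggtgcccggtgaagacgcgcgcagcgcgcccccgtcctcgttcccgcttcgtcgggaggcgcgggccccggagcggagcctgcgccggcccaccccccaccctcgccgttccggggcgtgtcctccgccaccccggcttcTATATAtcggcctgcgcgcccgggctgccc
Igfbp4: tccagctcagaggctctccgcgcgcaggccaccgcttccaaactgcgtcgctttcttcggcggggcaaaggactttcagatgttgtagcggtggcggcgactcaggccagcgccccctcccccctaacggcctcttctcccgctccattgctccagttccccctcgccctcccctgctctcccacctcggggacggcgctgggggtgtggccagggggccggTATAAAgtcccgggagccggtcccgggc
Igfbp4 has TATAAA starting 28 bases before the RefSeq start, Igfbp3 TATATA 30 bases before it, and Igfbp5 TATTTA 51 bases before it. For Igfbp5 the RefSeq start lies inside the GENCODE gene model given above, so the last bases printed belong to that model. The Igfbp2 promoter printed has none of these and holds GGGCGG 3 times and CACGTG once. Among the 32851 promoters of the table cut to the same length, TATAAA was in 12.4%, TATATA in 5.25%, TATTTA in 12.7%, CCAAT in 33.8%, GGGCGG in 32.7% and CACGTG in 6.02%. These matches are descriptions of letters and no binding was measured.

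Igf1 was uneven between cells. It was held by 37.7% of mesenchymal cells, 60.7% of mesothelial cells, 12.8% of epithelial cells and 0 of 21 endocrine cells, which allows a share of up to 16.1% (exact binomial). Within the mesenchyme 31.2% of cells were above 100 CPM and 51 cells above 1000 CPM, and the 41 highest cells held 66.6% of the summed cell levels. By plate the mesenchymal level of Igf1 was 411 CPM in 6A and 386 CPM in 6B, 58.7 CPM in 7A and 79.5 CPM in 7B, and 1006 CPM in 8A and 544 CPM in 8B. The lines did not overlap, with the Nkx3.2 cells lowest, but the plates of the Prox1 line lay further apart than the lower of them lay from the Nkx2.5 plates. The share of mesenchymal cells above 100 CPM was 39.9% in Nkx2.5 cells, 11.9% in Nkx3.2 cells and 53.8% in Prox1 cells.

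The M-III-like cells had the highest Igf1 of the 12 clusters. These 27 cells, 19 of them from the Prox1 line, were named from markers such as Isl1, the gene of a transcription factor, and Igf1 was used neither to cluster nor to name them. The study, however, lists Igf1 with this population in the same cells, so its height there is a description. The level was 1352 CPM in 7A, 1384 CPM in 7B, 2346 CPM in 8A and 1857 CPM in 8B. Of these cells 96.3% held Igf1, and 22 of 27 were above 1000 CPM. Against other mesenchymal cells of the same line it was 54.8-fold higher in Nkx3.2 cells (1367 CPM in 7 cells against 24.9 CPM) and 6.56-fold higher in Prox1 cells (2131 CPM in 19 cells against 325 CPM). Igfbp5 was the only other member past the fold in M-III-like cells, at 628 CPM against 143.7 CPM in Nkx3.2 cells and 420.0 CPM against 134.6 CPM in Prox1 cells. That made 2 of 9 members tested higher and none lower, where 4.81% of all genes tested were higher and 6.03% lower. Markers of neural crest and neurons summed to 108.2 CPM in M-III-like cells, 3 of 8 at 10 CPM or more and led by Stmn2 (80.2 CPM), and to between 2.63 and 26.6 CPM in the other mesenchymal clusters. Their part in the result was not tested.

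Igf1 also reached 608 CPM in an unnamed mesenchymal cluster of 57 cells led by Lpar1 and Smoc2, of which 50 came from the Nkx2.5 line. The 9 markers listed for M-I mesenchyme summed to 8838 CPM in it, more than in any other cluster. So did the 10 listed for M-II mesenchyme, at 3589 CPM. Its mean scaled marker level was higher for M-II (0.90) than for M-I (0.69), too close together for a name. The study stained for IGF1 and SMOC2 as markers of M-I and M-III, so this height too is a description. At the other end stood the M-SpP-like cells, which carry markers of the splenopancreatic mesenchyme. Igf1 was 35.98 CPM there against 446 CPM in the other mesenchymal Nkx2.5 cells, and 0.475 CPM against 89.1 CPM in Nkx3.2 cells. After thinning 4.76% of M-SpP-like cells held it, a share below that of the epithelium. Igfbp2 was the other member lower in M-SpP-like cells, with ratios of 0.421 in Nkx2.5 cells and 0.491 in Nkx3.2 cells, close to the limit of the call. The background in this comparison was 0.634% of genes higher and 2.75% lower, against 0 and 2 of 9 members. Markers of blood and immune cells summed to 205 CPM in M-SpP-like cells, 7 of 10 at 10 CPM or more and led by Hba-a2 (39.8 CPM), and to between 1.19 and 23.5 CPM in the other mesenchymal clusters. Their part in the result was not tested.

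The Igf1 difference between the Cre lines was also seen within M-II-like cells. In the mesenchyme outside the proliferating cluster, Igf1 was 412 CPM in Nkx2.5 cells and 68.1 CPM in Nkx3.2 cells, a ratio of 6.06 that lay between 5.29 and 6.73 over the 4 pairs of plates. The lines had different make-up, with the cluster led by Lpar1 and Smoc2 and cluster 1 holding most of the Nkx2.5 cells and the M-SpP-like and M-VSM-like clusters most of the Nkx3.2 cells. Among M-II-like cells alone, 57 and 45 in number, Igf1 was 253 CPM in 6A and 368 CPM in 6B against 18.5 CPM in 7A and 19.6 CPM in 7B. The ratio was 17.4 there, and 12.9 to 19.9 over pairs of plates. Most of these cells were in cluster 1 for the Nkx2.5 line (37 cells) and in cluster 4 for the Nkx3.2 line (24 cells). The 2 lines shared no plate, so line and plate cannot be told apart. Over all cells that passed, the median was 5750 genes and 1056674 counts in Nkx2.5 cells. In Nkx3.2 cells it was 7235 genes and 896115 counts. The part of this difference in the result was not tested.

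Gap43 and Syt6, genes listed with M-II mesenchyme, were broad in these cells. Of mesenchymal cells with Syt6, 32.9% held Igf1 (98 of 298), against 50% of those without it. The shares with and without Syt6 were 43.4% and 56.4% for Nkx2.5, 9.57% and 37.7% for Nkx3.2, and 57.4% and 66.7% for Prox1. With and without Gap43 they were 47.4% and 37.5% (6 of 16) for Nkx2.5, 15.1% and 40.9% for Nkx3.2, and 57.6% and 75% for Prox1, so the Nkx2.5 line went the other way for this gene. Cells are not replicates and these shares are descriptions.

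**Figure D2:**
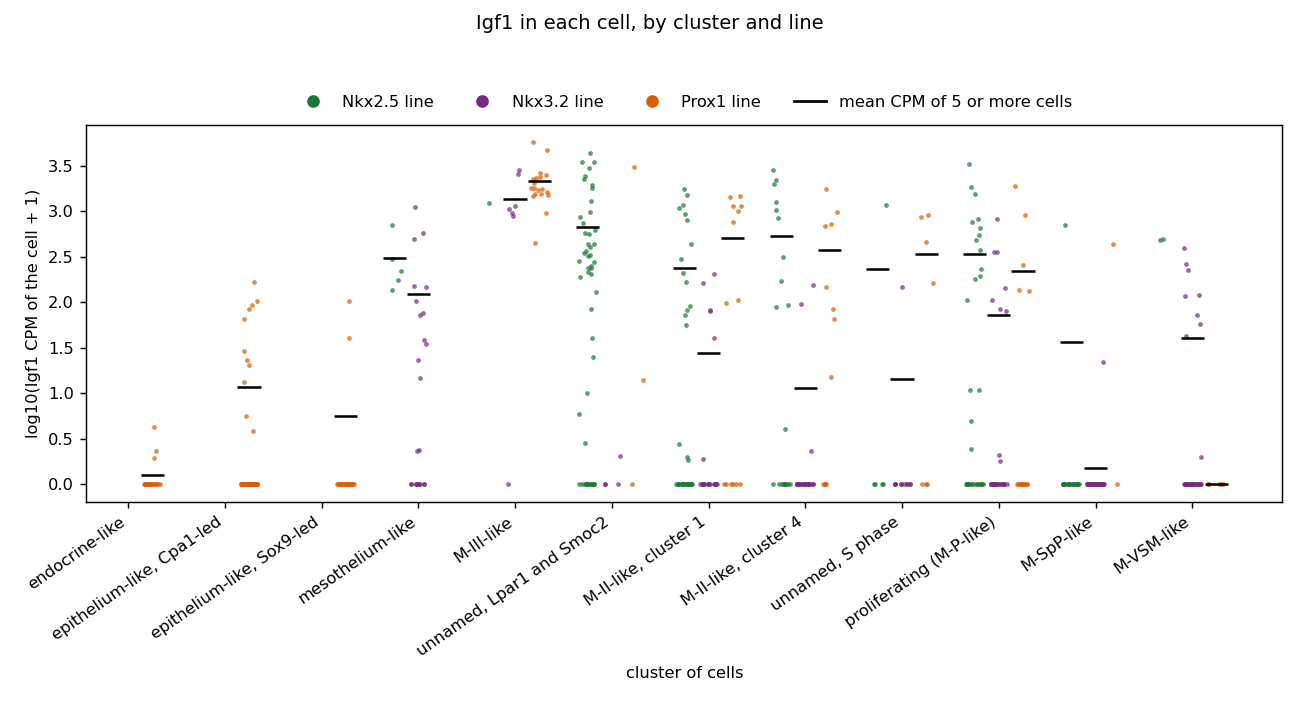
Igf1 in every cell that passed, as log10 of the cell's CPM plus 1, by cluster (x axis) and line (colour). Black bars are the mean CPM of 5 or more cells of a line. Cells of the M-III-like cluster sit together near the top, the M-SpP-like and M-VSM-like clusters hold no cell above 1000 CPM while every other mesenchymal cluster holds both cells without Igf1 and cells above that level, and endocrine-like cells stay under 4 CPM.

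Igf2 was the broad ligand. It was held by 99.5% of mesenchymal, 100% of mesothelial and 100% of epithelial cells and by 76.2% of endocrine cells. In the mesenchyme its level was 656 CPM in 6A and 572 CPM in 6B, 1269 CPM in 7A and 1647 CPM in 7B, and 981 CPM in 8A and 700 CPM in 8B. Nkx3.2 cells, lowest for Igf1, were highest for Igf2 in each plate. Outside the proliferating cluster the Nkx3.2 line had 1434 CPM against 624 CPM in Nkx2.5 cells. In M-II-like cells the levels were almost the same as in the whole mesenchyme, 1399 CPM against 615 CPM. Neither was called, because 7A against 6A gave a ratio of Nkx2.5 to Nkx3.2 of 0.518 in the mesenchyme and 0.522 in M-II-like cells. The highest level of any cluster was 1619 CPM, in the M-VSM-like cells, named from a list of mural cell markers and led by Kcnj8 and Abcc9, and the lowest was 85.2 CPM, in the endocrine-like cells.

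Per kb of exons the ligands could be set side by side. In the mesenchyme Igf2 was 5.21 times as high as Igf1, in mesothelium 10.1 times and in epithelium 79.9 times. The M-III-like cluster was the exception among the 12 clusters, with Igf1 at 1.15 times the level of Igf2 per kb. That value was carried by the Prox1 line, at 1.29 times, while the 7 Nkx3.2 cells had 0.866 times. Such ratios depend on the length chosen. All exons come to 9904 bases for Igf1 and 5723 for Igf2, the longest transcripts to 7052 and 4722. By the longest transcript Igf1 would stand higher against Igf2 in every group, so the side of 1 for the Nkx3.2 cells is not settled.

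The Igf1 receptor gene separated endocrine cells from the epithelium. Igf1r was 108.9 CPM in epithelial cells of 8A and 92.98 CPM in 8B, and 26.9 CPM and 6.73 CPM in endocrine cells of the same plates. It was held by 82.6% of epithelial but 23.8% of endocrine cells (5 of 21, exact binomial interval 8.22% to 47.2%). Insr did not follow, at 28.7 CPM in epithelial and 28.9 CPM in endocrine cells, with ratios of 1.54 in 8A and 0.648 in 8B. Per kb, Igf1r was therefore 2.90 times as high as Insr in epithelium and 0.436 times in endocrine cells. In mesenchymal cells Igf1r ranged from 66.9 CPM in 8A to 121.2 CPM in 8B, both in the same line, with the other plates between 82.3 and 100.97 CPM.

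Within the epithelium, 2 clusters were told apart by Sox9 and Cpa1, genes known for duct-forming trunk and acinar tip progenitors respectively. Sox9 was among the leading genes of one (30 cells) and Cpa1 among those of the other (56 cells). Neither gene came first in its cluster, and Spp1 was among the leading genes of both. The first cluster, called Sox9-led here, had more of both Igf receptor genes than the second, called Cpa1-led. Igf1r was 168.7 CPM against 69.6 CPM in 8A and 225 CPM against 56.9 CPM in 8B. Igf2r was 134.9 CPM against 59.7 CPM in 8A and 252 CPM against 97.7 CPM in 8B. Beside this, the 14 endocrine markers summed to 285 CPM in the Sox9-led cluster, with 2 of them at 10 CPM or more and Neurog3, a gene of endocrine progenitors, at 256 CPM, and to 18.6 CPM in the Cpa1-led cluster (Neurog3 7.25 CPM). Their part in the result was not tested. The comparison was chosen after these values had been seen. It called 2 of 8 members higher and none lower, against 5.07% and 3.50% of all genes, and under TMM scaling, which set the median gene lower by 0.13 on the log2 scale in the Sox9-led cells, Igf2r was no longer called.

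Igf2r was higher in mesenchymal cells of every plate than in the other layers. Its mesenchymal level ranged from 299 CPM (7A) to 464 CPM (8B) and 98.3% of the cells held it. In the epithelium it was 89.5 CPM in 8A and 130.8 CPM in 8B, in endocrine cells 107.2 CPM and 172.7 CPM. Mesothelial cells had 161.9 CPM in 6A, 212 CPM in 7A and 52.02 CPM in 7B, and 57.1% of them held it. The mesothelial ratio to mesenchyme was not called, since 7A gave 0.711, from 3 mesothelial cells. It was 0.480 in 6A, also from 3 cells, and 0.159 in 7B, from 20 cells.

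In mesenchyme, mesothelium and epithelium Insr was the receptor gene with the fewest holders (31.9%, 35.7% and 38.4% of cells), while in endocrine cells 52.4% held it, and no comparison called it. Its mesothelial level in 6A, 188.1 CPM, came from 1 of 3 cells.

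**Figure D3:**
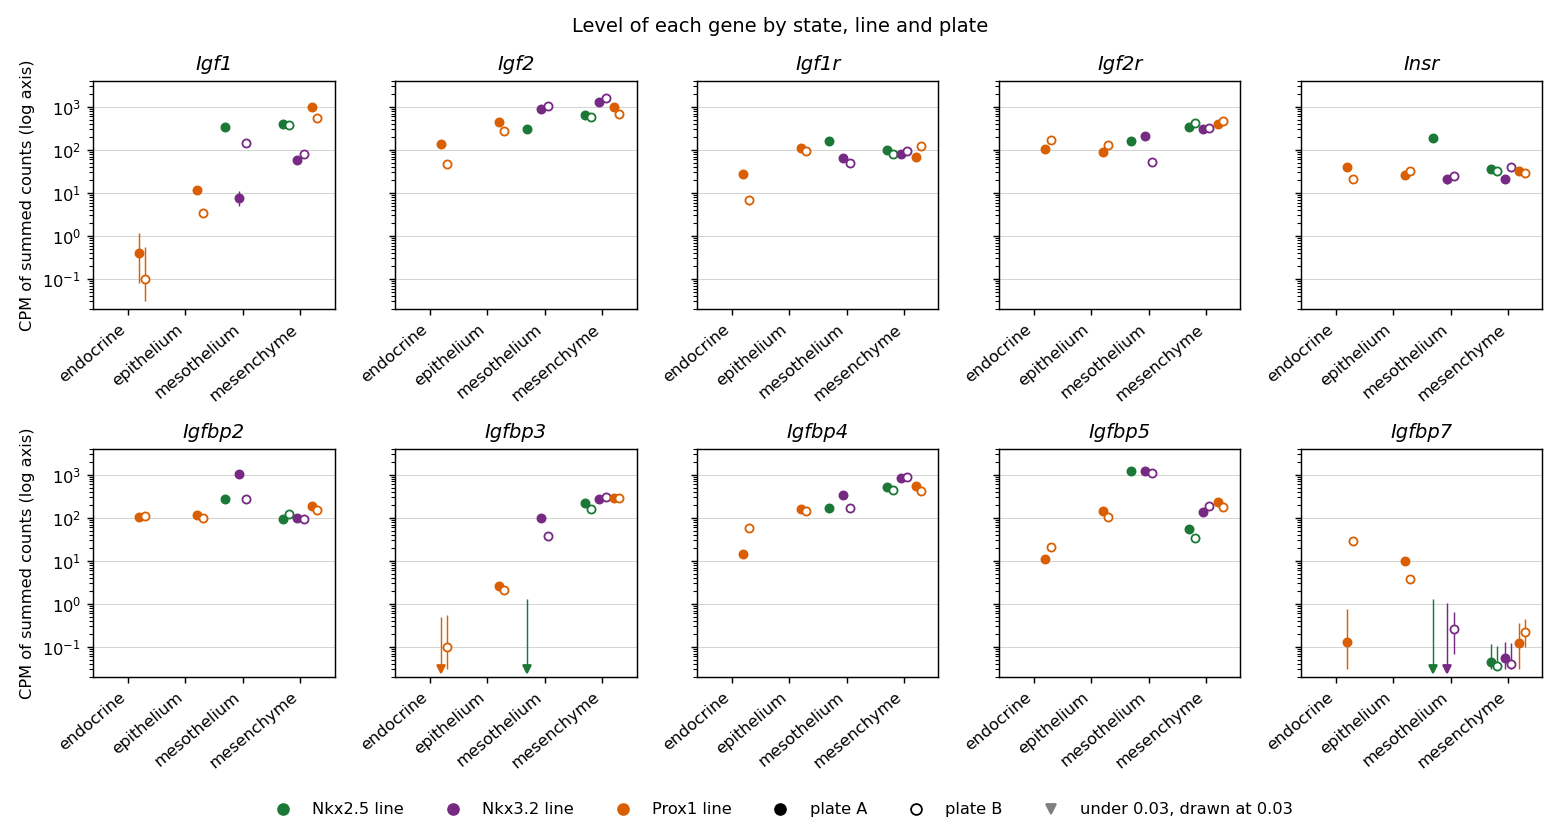
Level of each gene by state, line and plate, as CPM of summed counts on a log axis, with exact 95% Poisson intervals for counting error only. States with under 3 cells in a plate are not drawn. Mesenchymal Nkx3.2 cells are lowest for Igf1 and highest for Igf2, Igf1r drops in endocrine cells of both plates, and Igfbp5 is above 1000 CPM in mesothelium of all 3 plates drawn.

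Among the members tested, Igfbp3 set mesenchyme furthest apart from epithelium. It was 218, 163.3, 278, 311, 295 and 289 CPM in mesenchymal cells of 6A, 6B, 7A, 7B, 8A and 8B, and 69.8% of these cells held it. In the 7 M-III-like Nkx3.2 cells it was only 29.8 CPM, against 299 CPM in the other mesenchyme of that line. In the 19 M-III-like Prox1 cells it was 278 against 296 CPM. Epithelial cells had 2.66 CPM in 8A and 2.12 CPM in 8B, from 4 of 86 cells, and endocrine cells had 1 count in all. Mesothelial cells lay between, with 0 counts in the 3 cells of 6A, 100.6 CPM in 7A and 38.8 CPM in 7B. Igfbp4 followed the same order with smaller steps. It was held by 98.3% of mesenchymal cells at 422 CPM (8B) to 881 CPM (7B), and stood at 158.8 and 142.9 CPM in epithelial cells and 14.3 and 57.2 CPM in endocrine cells of 8A and 8B. In mesothelium it was 165.7, 342 and 171.3 CPM in 6A, 7A and 7B.

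Igfbp5 and Igfbp2 had the opposite leaning and peaked in the mesothelium, the cell sheet that covers the organ. Igfbp5 was held by all 28 mesothelial cells and reached 1195, 1245 and 1074 CPM in 6A, 7A and 7B, against 54.1, 137.02 and 192.9 CPM in mesenchymal cells of those plates. Igfbp2 was 272, 1022 and 267 CPM in mesothelium against 93.2, 99.8 and 92.2 CPM in mesenchyme, and the value of 7A rests on 3 cells. Within the mesenchyme Igfbp5 was higher in M-III-like cells and, in Nkx3.2 cells, in M-VSM-like cells (406 CPM against 100.4 CPM), while in the 6 M-VSM-like cells from the Prox1 line it was 212 CPM against 198 CPM. Igfbp5 was lower in Nkx2.5 than in Nkx3.2 cells in all 4 pairs of plates, at 46.4 against 167.4 CPM outside the proliferating cluster. In M-II-like cells the same lines had 34.1 and 25.6 CPM, and the pairs of plates went both ways (0.596 to 1.91). With Igf1 higher and Igfbp5 lower, the Cre lines differed in 2 of 9 members over the mesenchyme, where 1.49% of genes were higher and 2.26% lower in Nkx2.5 cells. In M-II-like cells Igf1 alone of 9 was called (2 members were without plate 6A and 3 without 7A), with 2.59% of genes higher and 3.83% lower.

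Igfbp7 was nearly silent in mesenchyme, with 25.3 counts in all 414 cells (0.0664 CPM). It was 9.95 CPM in 8A and 3.78 CPM in 8B in epithelial cells and 15.1 CPM in the Sox9-led cluster. In endocrine cells it was 0.133 CPM in 8A and 29.1 CPM in 8B, and 70.1% of the endocrine counts came from 1 cell. It was tested in 2 comparisons within Prox1 cells and called in neither.

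**Figure D4:**
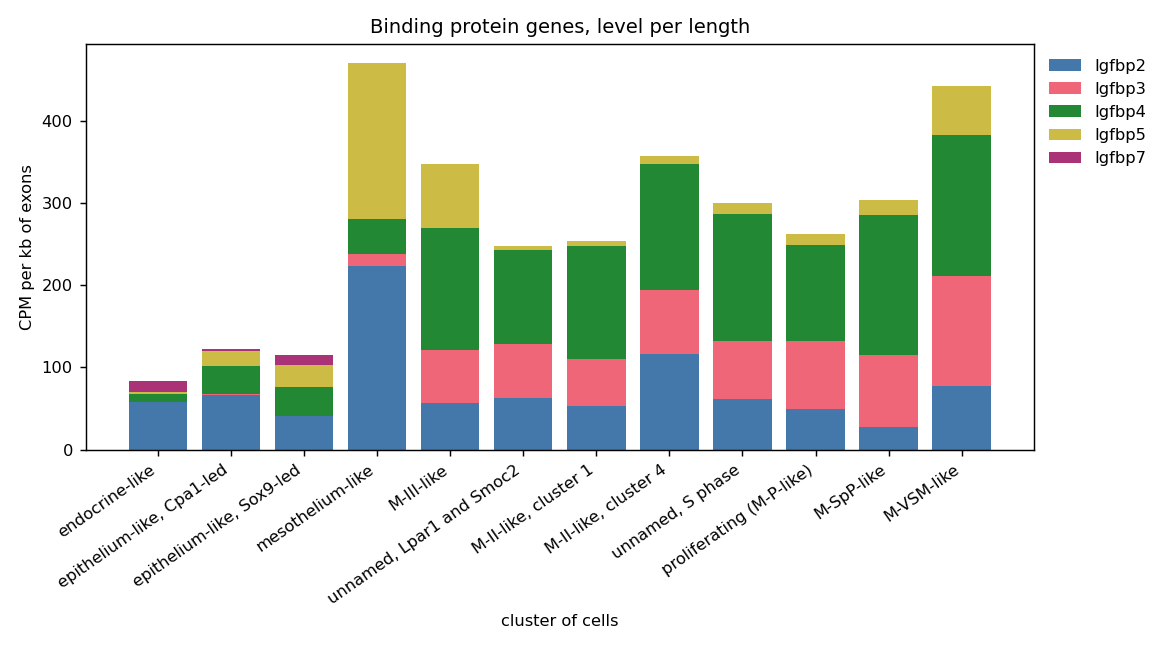
Levels of the 5 binding protein genes in each cluster in CPM per kb of exons, stacked, with the axis starting at 0. The bars are highest in mesothelium-like (470 CPM per kb) and M-VSM-like (443 CPM per kb) cells and lowest in endocrine-like cells (83.7 CPM per kb), and Igfbp3 makes up at most 0.908% of the epithelium-like and endocrine-like bars.

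Per kb of exons, then, each layer had its own mix of binding protein transcripts. Igfbp4 made up 47.2% and Igfbp3 26.2% of the 5 genes' sum in mesenchyme. In mesothelium Igfbp2 made up 47.6% and Igfbp5 40.3%. In epithelium Igfbp2 was 48.6%, Igfbp4 28.6% and Igfbp5 17.3%, and in endocrine cells Igfbp2 was 69.7%. Most cells held several of them, and 2 or more were found in 86% of mesenchymal, 96.4% of mesothelial, 89.5% of epithelial and 61.9% of endocrine cells.

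Among Prox1 cells, where epithelium and mesenchyme shared plates, 5 of 9 members tested were lower in epithelium (Igf1, Igf2, Igf2r, Igfbp3 and Igfbp4) and none higher. Of all genes tested 10.6% were lower and 11% higher. The largest step was in Igfbp3, 2.41 against 292 CPM, and the smallest of the called in Igf2, 369 against 815 CPM. The median log2 ratio, taken on CPM plus 1, was -1.14 over the members tested and -0.01 over all genes tested. Igf1r, Insr, Igfbp2 and Igfbp5 were not called. In endocrine against epithelial cells, Igf2, Igf1r, Igfbp4 and Igfbp5 were lower, 4 of 8 members tested, and none was higher, with 16.2% of genes lower and 13% higher and medians of -0.97 and -0.09. With states taken from marker scores of single cells, Igf1r alone of these stayed lower, and Igf1 was higher. Beside these values, markers listed for hepatoblasts summed to 9625 CPM in endocrine cells, almost all from Ttr (8840 CPM), and those for neurons and neural crest to 223 CPM, led by Tubb3. Both genes are also known in islet cells. Their part in the result was not tested.

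In mesothelium against mesenchyme, Igfbp2 and Igfbp5 were higher and Igfbp3 and Igfbp4 lower, out of 9 members tested, with 2.60% of all genes higher and 6.38% lower. With states from marker scores no member was called. The median log2 ratio was -0.35 over the members and -0.01 over all genes. Markers of M-III mesenchyme summed to 2203 CPM in these cells, led by Sulf1, against 598 CPM in mesenchyme, and the part of such genes in the result was not tested.

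Proliferating, M-II-like and M-VSM-like cells had no member called against the other mesenchyme. For proliferating cells 2.74% of genes were higher and 0.755% lower. The ratio for Igf2 was 0.931 in Nkx2.5 cells, 0.933 in Nkx3.2 cells and 0.885 in Prox1 cells. For Igf1 it was 0.835, 0.896 and 0.238 in the same order. Cells scored as S phase were also among those set against the proliferating ones, 39 of 72 in cluster 1 and 17 of 23 in another unnamed cluster. No member was called in M-II-like cells either, with a background of 0.0796% higher and 1.24% lower, or in M-VSM-like cells, with 1.59% higher and 2.75% lower. The cells set against the M-II-like ones included the 57 led by Lpar1 and Smoc2 and the unnamed cluster of 23. Both of these clusters also scored highest for M-II (0.90 and 0.95), without the margin for a name. Igf1 was still 38.8 against 73.5 CPM in M-VSM-like Nkx3.2 cells and 0 against 797 CPM in the 6 from Prox1. In M-II-like cells of Nkx2.5, Nkx3.2 and Prox1, ratios were 0.746, 0.223 and 0.471 for Igf1. For Igfbp5 they were 0.696, 0.124 and 0.462. Some other settings called Igf1 lower in both states and Igfbp5 lower in M-II-like cells. Without 8B, Igfbp2 and Igfbp5 were higher in M-VSM-like cells.

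Since Igf2 was held by nearly all cells outside the endocrine state, the share with both Igf2 and Igf1r was close to that of Igf1r itself. Igf2 and Igf1r were held together by 73.9% of mesenchymal, 85.7% of mesothelial, 82.6% of epithelial and 23.8% of endocrine cells. Igf1 and Igf1r met in 25.8% of mesenchymal cells, in 70.4% of M-III-like cells (19 of 27) and in 11.6% of epithelial cells.

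The wider pathway was read from a list of 42 genes, of which 39 were in the tables. In epithelium 2 of 27 tested were higher than in mesenchyme and 5 lower, where 11% of all genes were higher and 10.6% lower. Grb14, an adaptor that binds the insulin receptor, was higher at 48.7 against 1.86 CPM, and Igfals, which encodes a partner of the circulating Igf complex, at 14.004 against 0 CPM. Among the lower genes were Htra1, a secreted protease, at 0 against 31.96 CPM, Irs1 (0.369 against 13.1 CPM), Pik3ca and Shc1. In endocrine cells 6 of 29 were higher than in epithelium and 1 lower, where 13% of all genes were higher and 16.2% lower. Insulin genes Ins1 and Ins2 stood at 170.4 and 122.3 CPM against 0 counts, from 9 and 12 of 21 cells. Igfbp1, the chromosomal neighbour of Igfbp3, was 73.9 against 0.413 CPM, in 7 cells, and Igfbpl1 was 74.7 against 4.801 CPM, in 18 cells. Gab1, an adaptor, was lower at 8.64 against 71.9 CPM. Irs4 was higher in M-III-like cells at 17.1 against 0 CPM, but from 3 cells. In mesothelium Htra1 (5.62 against 74.9 CPM) and Foxo1 (7.43 against 19.03 CPM) were the 2 lower of 27, with none higher, where 6.38% of all genes were lower and 2.60% higher.

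Genes with the most similar pattern were sought over 35 units of plate and cluster with at least 5 cells, among 9902 genes, by Pearson r of log2(CPM + 1). The units share plates and lines, so r is a description. Zfhx4 (0.824) was close to Igf1, and Ccnd3 (0.928) and Ddah2 (0.9) to Igf2. Igfbp3 lay with Gypc (0.972), Pcdh18 (0.969) and Col1a1 (0.966), and Igfbp4 with Ppic (0.906). Igf2r was closest to Tspan18 (0.840) and Snai2 (0.836), and Igfbp5 to Id3 (0.725) and Id1 (0.702). Igfbp7 had Depp1 (0.927), Igf1r Pdp1 (0.793), Insr Foxred1 (0.846) and, with the weakest likeness, Igfbp2 Sytl2 (0.627). Among the members themselves Igfbp3 and Igfbp4, and Igf2 and Igfbp4, each had r of 0.849, and Igfbp3 and Igfbp7 had -0.772.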

How the data were processed

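Smart-seq2 reads of 576 cells were trimmed with Trim Galore 0.6.5, per the submitters' processing notes, and the authors quantified them with kallisto on GRCm38 and summed transcripts to genes with tximport. The deposited values are estimated counts, one column to a cell, not normalized and made without molecular identifiers, so copies from PCR are counted. The annotation release is not given in the sources used here. All 576 sample columns were used.

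The filter of the study's methods was applied, which asks for 1000 genes and 100000 counts in a cell and at most 30% of counts from mitochondrial genes. Seurat 5.3.0 clustered the others (20 components in place of a JackStraw choice, resolution 1.9, cell cycle difference regressed out), without the 10 members and the pathway list. Clusters were named at a mean scaled marker level of 0.9 with a margin of 0.4, a rule written after the clusters had been seen. The mesenchymal lists came from the study's tables of these cells. No doublet caller was run. A pathway list of 42 genes was read beside the members, 3 of which (Airn, H19 and Igf2os) were not analysed here.

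Genes named were all 10 members in each comparison, the largest pathway ratios per direction and the 3 most similar genes per member, of which some are not reported here. The promoters printed were chosen after the values had been seen. The members and lists were chosen with earlier results of these data known. The call rule was checked on simulated counts, with changes well past the limit and little spread between plates. This does not show how the rule does near 2-fold or for genes carried by few cells. Depth per cell ranged from 224814 to 1512736 counts. Alternatives covered scaling with TMM (edgeR 4.0.16), library size, filters, folds, clustering, plates and single cells.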

Additional observations from a re-analysis of the deposited data

Results flagged for a closer look

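In 2 cases a member lay at least 2-fold higher in a state in 1 line and at least 2-fold lower in another line, and the difference between the lines was not tested. The log2 ratio of Insr in M-III-like against other mesenchymal cells was 1.462 for Nkx3.2 (74.02 against 26.9 CPM) and -2.993 for Prox1 (4.83 against 38.5 CPM), over 7 and 19 M-III-like cells. Among the Nkx3.2 cells 48.3% of the M-III-like counts came from 1 cell, and 4 of the 19 Prox1 cells had a count. The log2 ratio of Igfbp2 in M-VSM-like against other mesenchymal cells was 1.003 for Nkx3.2 (162.8 against 81.2 CPM) and -1.858 for Prox1 (48.5 against 175.9 CPM), where the M-VSM-like cells numbered 33 and 6.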

How the results depend on the processing

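No paired analysis was possible because the labels name no embryo and no result came from a test. Of 250 ratios of called members recomputed under other settings, 0 changed direction. The calls held in every setting run for Igf1, Igf2r and Igfbp3 in epithelium against mesenchyme, Igf1r in endocrine cells, Igf1 in both comparisons of the Cre lines and in M-SpP-like cells, and Igf1 and Igfbp5 in M-III-like cells. The number of members called moved as follows, and the cause was not tested. Under a 3-fold limit it went from 5 to 3 in epithelium against mesenchyme, from 4 to 3 in endocrine cells, from 2 to 0 in the Sox9-led cluster, from 4 to 1 in mesothelium, from 2 to 1 between the Cre lines and from 2 to 1 in M-SpP-like cells. Under 1.5-fold it was 4 between the Cre lines, 2 among their M-II-like cells and 1 in M-VSM-like cells. States from marker scores, by which 54 cells had another broad state, called 2 members in endocrine cells (Igf1r, kept of 4, and Igf1, which had not been called), 0 of 4 in mesothelium and 1 of 2 in M-SpP-like cells, and called 1 in M-II-like and 1 in M-VSM-like cells, where 0 had been called. Without plate 8B, 4 members were called in the Sox9-led cluster and 2 in M-VSM-like cells. Without 7A it was 3 between the Cre lines in M-II-like cells (1 otherwise), 1 in M-SpP-like and 1 in M-VSM-like cells. Without 6A it was 2 in the former, and without 6B it was 1 in M-II-like against other cells. With no filter on low values 4 were called in the Sox9-led cluster and 2 between the Cre lines in M-II-like cells. With no gene left out of the clustering 4 were called between the lines in M-II-like cells and 1 in M-II-like against other cells, and with 10 components 1 in the latter. The mean over cells gave 1 in M-SpP-like and 1 in M-VSM-like cells, TMM gave 1 in M-SpP-like cells, and leaving out the top cell of each group gave 1 in M-II-like and 1 in M-VSM-like cells. Counts of all genes called also depended on the settings, with 2340 in epithelium against mesenchyme (1009 to 5122), 3226 in endocrine cells (1572 to 6558), 956 in mesothelium (70 to 4583), 379 between the Cre lines (91 to 2234) and 1136 in M-III-like cells (349 to 4938). TMM moved the median gene by -0.13 in the Sox9-led and by -0.11 in the M-III-like comparison on the log2 scale. M-VSM-like and M-III-like cells gave no value with 10 or 30 components, nor M-SpP-like cells with 10, since no cluster took those names. The Sox9-led comparison was chosen after seeing the data. A level of 3 counts is 0.172 CPM over all 21 endocrine cells and 0.00786 CPM over the mesenchyme. These are limits of read depth alone, since copies from PCR are counted.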
